A study of Homo sapiens with 30 samples.

Results

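FAT1, DSP, PITX1, PTPRS, SHROOM4 and LZTS1 are 6 of the 63138 genes counted in hCMEC/D3 cells, an immortalized line of human brain microvascular endothelial cells. They were chosen by their measured levels, as top rises in cells that had received extracellular vesicles shed by stimulated cells of the same line. Values from the vesicle-treated libraries are therefore given as a description, without a test. The 30 RNA-seq libraries form 10 groups of 3, all 12 h after treatment and all labelled as batch 1. In the direct arm, cells received serum-free medium alone (Control), 200 nM epinephrine, 50 ng/mL of the complement fragment C5a, 10 ng/mL IL-1β or 25 ng/mL TNFα. In the vesicle arm, cells received vesicles enriched from the supernatants of cells kept in that medium (EV-Control) or exposed to those stimuli at those concentrations (EV-TNFα, EV-IL-1β, EV-C5a and EV-epinephrine). All groups share the line and its immortalization. Nothing in the labels says whether replicates came from separate cultures, so p-values measure the spread between these libraries, which may be technical. Since the direct libraries took no part in the rule that chose the genes, only comparisons within the direct arm test them. The choice was made with earlier results of these data known, and the contrasts between stimuli were added after seeing the data.

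The 6 genes are better known from epithelia, neurons and development than from brain endothelium. FAT1 is a giant protocadherin of the Fat family, whose cytoplasmic tail binds actin regulators and which acts on planar cell polarity and on the Hippo pathway. DSP encodes desmoplakin, the plakin that ties desmosomal cadherins, through plakoglobin and the plakophilins, to intermediate filaments. PTPRS is a receptor protein tyrosine phosphatase of the LAR family that binds heparan and chondroitin sulfate proteoglycans. SHROOM4 belongs to the Shroom family of actin-binding proteins that govern actomyosin architecture. PITX1 is a paired-type homeobox transcription factor of hindlimb and pituitary development, and LZTS1 is a leucine-zipper protein described as a tumour suppressor that binds microtubules. Endothelial cells form classical cadherin junctions but usually no desmosomes.

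Because these genes were high in the same vesicle groups, their promoters are set side by side, from 250 bases before to 50 bases after the RefSeq start (GRCh38.p14). Shown are 6 promoters for 5 of the genes, 2 of them for FAT1. None is shown for LZTS1, whose promoter was not examined. Each is printed 5′ to 3′ on the gene's own strand, with capitals for the GC box GGGCGG and the cAMP response element TGACGTCA, either strand. The positions are chr4:186726647-186726946 and chr4:186723807-186724106 for FAT1, chr6:7541421-7541720 for DSP, chr5:135034179-135034478 for PITX1, chr19:5340763-5341062 for PTPRS and chrX:50643623-50643922 for SHROOM4.
FAT1, first start: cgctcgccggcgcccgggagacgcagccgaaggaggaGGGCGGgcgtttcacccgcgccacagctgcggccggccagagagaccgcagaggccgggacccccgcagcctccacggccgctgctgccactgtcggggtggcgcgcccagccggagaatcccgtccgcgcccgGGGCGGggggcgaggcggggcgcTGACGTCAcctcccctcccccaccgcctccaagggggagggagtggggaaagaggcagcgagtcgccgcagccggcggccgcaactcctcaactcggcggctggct
FAT1, second start: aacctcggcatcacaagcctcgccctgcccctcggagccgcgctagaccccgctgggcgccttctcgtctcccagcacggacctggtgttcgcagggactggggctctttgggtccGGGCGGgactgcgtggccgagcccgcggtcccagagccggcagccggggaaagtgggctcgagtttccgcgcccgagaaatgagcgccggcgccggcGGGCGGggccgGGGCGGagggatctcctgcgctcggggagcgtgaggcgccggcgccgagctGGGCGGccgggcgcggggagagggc
DSP: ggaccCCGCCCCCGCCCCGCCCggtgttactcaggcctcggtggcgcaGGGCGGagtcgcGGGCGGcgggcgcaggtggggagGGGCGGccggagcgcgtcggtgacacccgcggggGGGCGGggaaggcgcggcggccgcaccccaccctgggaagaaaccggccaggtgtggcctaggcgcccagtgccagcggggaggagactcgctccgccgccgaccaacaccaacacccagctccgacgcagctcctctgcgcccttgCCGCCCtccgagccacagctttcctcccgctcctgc
PITX1: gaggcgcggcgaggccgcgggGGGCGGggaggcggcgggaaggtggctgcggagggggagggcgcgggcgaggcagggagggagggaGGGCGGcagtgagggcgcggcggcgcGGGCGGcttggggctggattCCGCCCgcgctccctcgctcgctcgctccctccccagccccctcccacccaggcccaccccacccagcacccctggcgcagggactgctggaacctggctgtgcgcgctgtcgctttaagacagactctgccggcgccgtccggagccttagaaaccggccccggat
PTPRS: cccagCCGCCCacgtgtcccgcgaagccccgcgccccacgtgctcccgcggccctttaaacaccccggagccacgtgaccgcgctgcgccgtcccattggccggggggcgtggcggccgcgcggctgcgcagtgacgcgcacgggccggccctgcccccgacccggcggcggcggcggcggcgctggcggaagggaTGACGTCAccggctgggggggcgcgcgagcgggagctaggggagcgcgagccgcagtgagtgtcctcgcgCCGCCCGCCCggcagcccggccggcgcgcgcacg
SHROOM4: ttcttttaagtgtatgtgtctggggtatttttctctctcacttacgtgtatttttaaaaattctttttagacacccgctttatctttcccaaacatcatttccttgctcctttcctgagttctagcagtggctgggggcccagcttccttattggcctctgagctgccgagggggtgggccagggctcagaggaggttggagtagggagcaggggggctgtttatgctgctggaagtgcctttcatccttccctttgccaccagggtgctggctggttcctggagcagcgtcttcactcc

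The promoters of FAT1, DSP, PITX1 and PTPRS were GC-rich CpG-dense sequences, and the SHROOM4 window, at an internal start, was not. Their GC content was 77.3% and 76% for the FAT1 starts, 77% for DSP and PITX1 and 81.3% for PTPRS, against a median of 58.7% over 35116 promoters. They held 40, 41, 37, 35 and 55 CpG in that order, against a median of 14. The SHROOM4 window had 51.3% GC and 4 CpG. The windows of SHROOM4, PITX1 and the second FAT1 start lie wholly inside the annotated gene spans, so these starts are internal. The SHROOM4 window ends at 50643922, far from the outer start of the gene at 50814302, for which no window is shown. GC boxes numbered 2 and 4 at the FAT1 starts, 8 in DSP, 4 in PITX1, 3 in PTPRS and 0 in SHROOM4, some of them overlapping, and 45% of all promoters held at least 1. The cAMP response element, the sequence bound by CREB-family factors, occurred 55 bases before the first FAT1 start and 53 bases before the PTPRS start, and 1.85% of all promoters held it. The CCAAT box (CCAAT) occurred once each in PTPRS and SHROOM4 and in 34.6% of all promoters. PTPRS also held 3 E-boxes (CACGTG, in 7.26% of promoters), the first of which overlaps its first GC box. An AP-1 site (TGANTCA, 7.71%), a TEAD site (GGAATG, 14.0%) and a TATA box (TATAAA, 11.5%) were also searched on both strands, and none of these letters was in the 6 windows.

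In GENCODE 29 on GRCh38, all 6 are protein-coding genes. FAT1 (ENSG00000083857) lies on the minus strand of chromosome 4 from 186587783 to 186726722, and DSP (ENSG00000096696) on the plus strand of chromosome 6 from 7541575 to 7586717. PITX1 (ENSG00000069011) lies on the minus strand of chromosome 5 from 135027735 to 135034813, and PTPRS (ENSG00000105426) on the minus strand of chromosome 19 from 5158495 to 5340803. SHROOM4 (ENSG00000158352) lies on the minus strand of chromosome X from 50591647 to 50814302, and LZTS1 (ENSG00000061337) on the minus strand of chromosome 8 from 20246165 to 20303963. PITX1 shares exon bases with AC008406.3 on the other strand, which held 2 counts over all libraries. The other 5 share exon bases with no annotated gene.

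The libraries held 16643961 to 22112326 counts, and the 2 libraries of any replicate pair differed by more than counting noise. The second epinephrine library stood apart from its replicates, with a chi-square per gene of 12.9 and 10.1, and EV-Control libraries 1 and 3 differed by 10.1, against 2.04 to 5.96 for the other pairs. Of 13 endothelial markers, 12 had a mean of at least 1 CPM (counts scaled to library size, here with edgeR's TMM factors), all but EMCN. Their summed level was 1179 to 1224 CPM in Control, 723 to 774 in EV-Control, 842 to 871 in EV-TNFα, 836 to 898 in EV-IL-1β, 729 to 755 in EV-C5a and 830 to 865 in EV-epinephrine. Among the direct stimuli it was 1147 to 1199 CPM with TNFα, 830 to 854 with IL-1β, 854 to 886 with C5a and 925 to 983 with epinephrine, so it was below Control in every library of the last 3. Among the epithelial markers, CLDN7 and CLDN4 reached a mean of 1 CPM, GRHL2 was at 0 in every library, and EPCAM and CDH1 stayed at or below group means of 0.191 and 0.174 CPM. Of 10 fibroblast and mural markers, 7 reached 1 CPM, with sums of 624 to 665 CPM in EV-Control, 719 to 739 in EV-TNFα, 718 to 788 in EV-IL-1β, 620 to 643 in EV-C5a and 785 to 817 in EV-epinephrine. Of 7 astrocyte and neuron markers 3 reached 1 CPM, with AQP4 at 0, and of 6 leukocyte markers 1 did. The endothelial and the fibroblast and mural sums were thus higher in the 3 vesicle groups where the 6 genes were high, and the part of these and of the direct shifts in the levels below was not tested. In bulk RNA, a change in the share of cells of a type and a change in RNA per cell cannot be told apart.

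**Figure D1:**
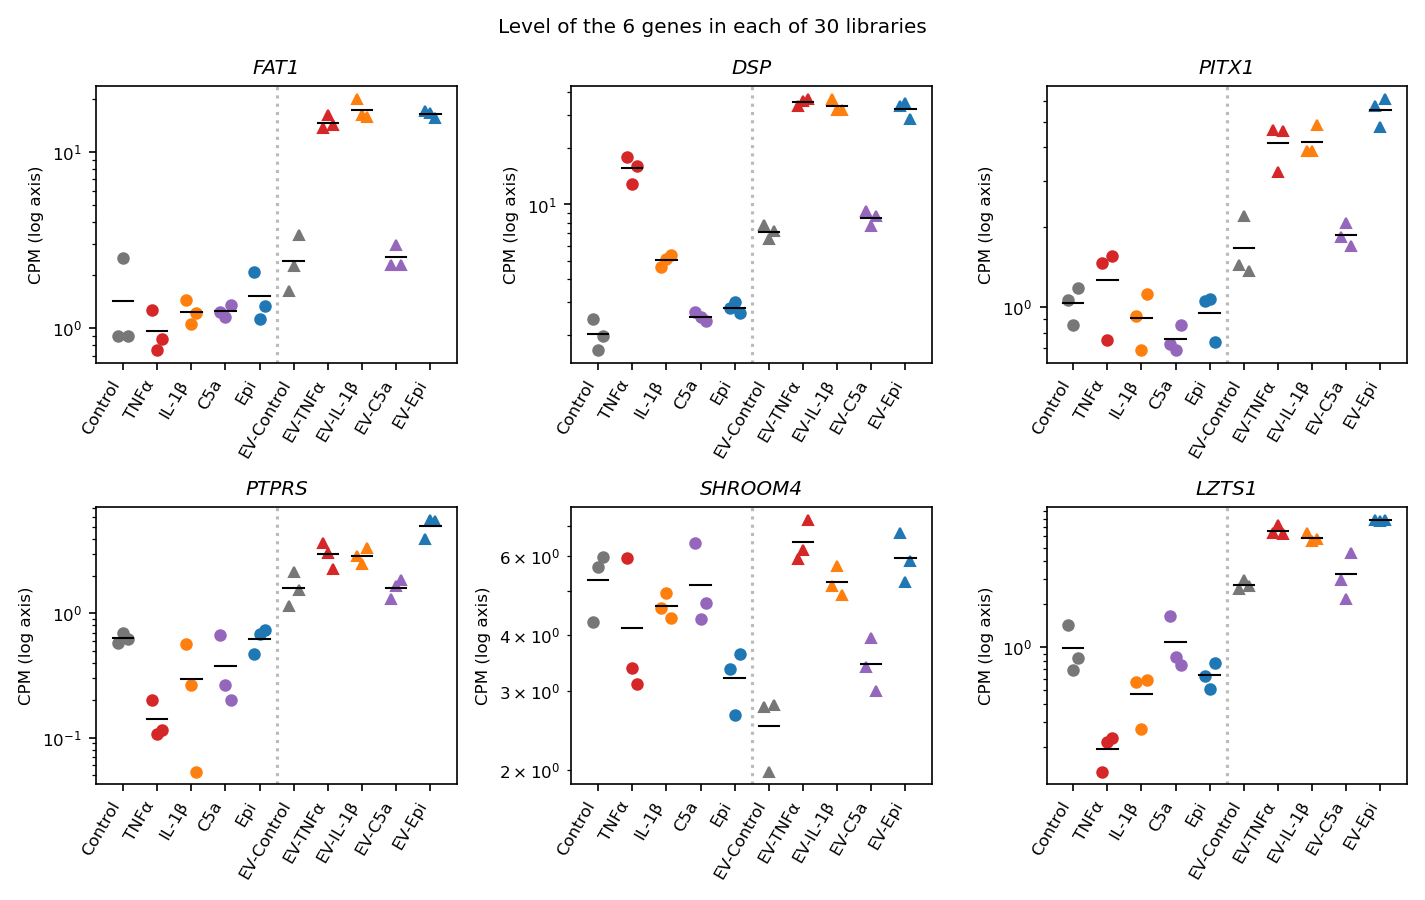
Level of each gene in each of the 30 libraries, in CPM on a log axis. Circles are direct libraries, triangles are vesicle libraries and bars are group means. For every gene shown, the EV-TNFα, EV-IL-1β and EV-epinephrine libraries lie above every EV-Control and EV-C5a library.

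In cells given vesicles, all 6 genes stood at a higher level with vesicles of TNFα-, IL-1β- or epinephrine-stimulated cells than with vesicles of unstimulated cells, whereas with C5a vesicles 5 of them overlapped EV-Control. FAT1 held 27, 41 and 62 counts in the EV-Control libraries, which is 1.62, 2.26 and 3.39 CPM. It held 13.7, 16.2 and 14.2 CPM with EV-TNFα, 20.1, 16.2 and 15.8 CPM with EV-IL-1β, and 17.1, 16.6 and 15.6 CPM with EV-epinephrine. With EV-C5a its level was 2.30, 2.98 and 2.29 CPM. The first 3 groups lay far above EV-Control without overlap, whereas EV-C5a lay inside its range. The fitted log2 differences from EV-Control were 2.58 (SE 0.16), 2.82 (0.16), 0.05 (0.21) and 2.75 (0.16) for EV-TNFα, EV-IL-1β, EV-C5a and EV-epinephrine. FAT1 had the largest log2 difference in each of the 3, among 763, 827 and 1204 genes that were higher at an adjusted p under 0.05, without overlap and with a mean of at least 5 CPM.

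DSP had rank 2 in each of those rankings. Desmoplakin mRNA was 7.73, 6.56 and 7.17 CPM in EV-Control, 33.9, 35.9 and 36.8 CPM with EV-TNFα, 37.0, 31.9 and 32.0 CPM with EV-IL-1β, and 33.6, 35 and 28.7 CPM with EV-epinephrine. EV-C5a libraries held 9.20, 7.62 and 8.63 CPM. The 3 high groups overlapped each other and no other group, and EV-C5a overlapped EV-Control. The log2 differences were 2.31 (SE 0.099), 2.23 (0.10), 0.25 (0.12) and 2.18 (0.10) in the same order as above.

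PITX1, PTPRS and LZTS1 were highest with vesicles of epinephrine-stimulated cells. PITX1 went from 1.44, 2.20 and 1.37 CPM in EV-Control to 4.67, 3.22 and 4.60 CPM with EV-TNFα, 3.86, 3.86 and 4.84 CPM with EV-IL-1β and 5.76, 4.79 and 6.12 CPM with EV-epinephrine. EV-epinephrine and EV-IL-1β libraries overlapped for this homeobox gene, with log2 differences from EV-Control of 1.31 (SE 0.23), 1.32 (0.23), 0.16 (0.25) and 1.73 (0.22) for EV-TNFα, EV-IL-1β, EV-C5a and EV-epinephrine. The phosphatase gene PTPRS held 1.14, 2.15 and 1.53 CPM in EV-Control, 3.66, 3.07 and 2.27 CPM with EV-TNFα, 2.88, 2.52 and 3.36 CPM with EV-IL-1β and 3.94, 5.64 and 5.54 CPM with EV-epinephrine. Its EV-epinephrine libraries all lay above the others, and the log2 differences were 0.89 (SE 0.25), 0.85 (0.26), -0.01 (0.28) and 1.63 (0.24). LZTS1 held 2.58, 2.97 and 2.68 CPM in EV-Control, 6.30, 7.26 and 6.18 CPM with EV-TNFα, 6.29, 5.58 and 5.75 CPM with EV-IL-1β and 7.78, 7.69 and 7.81 CPM with EV-epinephrine. Again the EV-epinephrine libraries stood apart above the rest, with log2 differences of 1.26 (SE 0.19), 1.09 (0.19), 0.24 (0.20) and 1.5 (0.18). With EV-C5a, PITX1 held 1.83, 2.08 and 1.69 CPM, PTPRS 1.31, 1.65 and 1.86 CPM and LZTS1 2.98, 2.18 and 4.59 CPM, all overlapping EV-Control.

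SHROOM4 was 2.76, 1.98 and 2.79 CPM in EV-Control and 5.89, 6.18 and 7.21 CPM with EV-TNFα. It was 5.13, 5.69 and 4.90 CPM with EV-IL-1β and 6.74, 5.24 and 5.83 CPM with EV-epinephrine. It was the only member whose EV-C5a libraries, at 3.40, 3.94 and 3.00 CPM, all exceeded the EV-Control libraries. The log2 differences for this Shroom gene were 1.35 (SE 0.18), 1.06 (0.19), 0.46 (0.20) and 1.25 (0.19). All 6 genes were thus above EV-Control without overlap with EV-TNFα, EV-IL-1β and EV-epinephrine, which was the case for 13.2%, 14.1% and 16.8% of all genes tested, and 1 of 6 with EV-C5a, against 5.31%. The choice of genes fixes the first 3 counts. Their median log2 difference was 1.33, 1.20, 0.20 and 1.68, and the medians over all genes lay between -0.00446 and 0.00709. All 4 comparisons use the same 3 EV-Control libraries. Without the first of these the medians were 1.32, 1.18, 0.134 and 1.54, and without the third 1.34, 1.17, 0.242 and 1.60.

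The members lay at the top of the rises to different depths. With EV-TNFα, SHROOM4 had rank 5 and LZTS1 rank 9, and the genes next below LZTS1 were RTP4, with a log2 difference of 1.23, and PHGDH, with 1.16. With EV-IL-1β, LZTS1 had rank 13 and SHROOM4 rank 15, followed by GBP4 and CPA3, both at 1.06. PITX1 and PTPRS stayed under the 5 CPM needed to be ranked with those vesicles. With EV-epinephrine, PITX1, PTPRS and LZTS1 had ranks 3, 4 and 5 and SHROOM4 rank 12, and ZNF792 at 1.23 had rank 14.

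**Figure D2:**
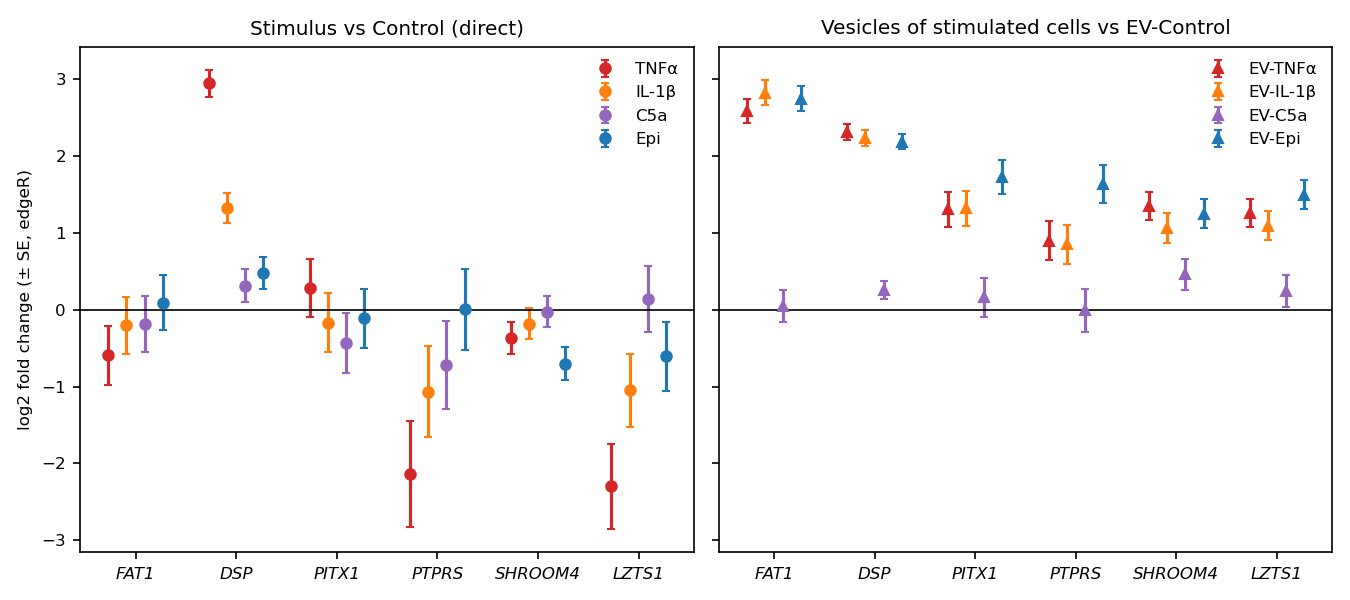
Log2 difference (points) with its SE (bars) for each gene, from stimulus against Control on the left and from vesicles of stimulated cells against EV-Control on the right. FAT1 lies at 2.58, 2.82 and 2.75 on the right and between -0.60 and 0.09 on the left, whereas DSP is at 2.94 with TNFα and 2.31 with EV-TNFα.

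Most of the members already stood at another level with vesicles of unstimulated cells than in medium alone. Against Control, the log2 difference of EV-Control was 1.82 for DSP, 1.46 for LZTS1, 1.34 for PTPRS, 0.70 for PITX1 and 0.76 for FAT1, and -1.08 for SHROOM4. The libraries did not overlap for DSP, LZTS1, PTPRS and PITX1, which were higher, nor for SHROOM4, which was lower, and they overlapped for FAT1. Such a higher position without overlap held for 17.7% of all genes and a lower one for 17.2%. SHROOM4, unlike the other members, overlapped Control with 3 of the 4 kinds of vesicle from stimulated cells, at log2 differences from Control of 0.28 with EV-TNFα, -0.01 with EV-IL-1β and 0.17 with EV-epinephrine. With EV-C5a it was lower without overlap, at -0.62. For FAT1 the first 3 of these differences were 3.34, 3.58 and 3.50, and for DSP 4.13, 4.05 and 4. For PITX1 they were 2.01, 2.02 and 2.43, for PTPRS 2.24, 2.20 and 2.98 and for LZTS1 2.72, 2.56 and 2.96. These comparisons across the arms carry no test, and the labels do not say whether both arms were handled together.

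Added directly, the stimuli gave another pattern, and only DSP rose. With TNFα, 3 of 6 genes passed edgeR's quasi-likelihood test at a Benjamini-Hochberg adjusted p under 0.05, 1 higher and 2 lower, where 52.7% of 15908 genes passed, 27.5% higher and 25.3% lower. DSP held 2.43, 1.65 and 1.97 CPM in Control (46, 31 and 35 counts) and 17.9, 12.8 and 16.2 CPM with TNFα (268, 239 and 280 counts). It rose by 2.94 on the log2 scale (SE 0.17, adjusted p = 8.59e-17, edgeR), a 7.69-fold rise, with no overlap. LZTS1 fell from 27, 13 and 15 counts in Control to 2, 4 and 4 with TNFα, which is 1.43, 0.694 and 0.843 CPM against 0.133, 0.215 and 0.231 CPM. Its log2 change was -2.30 (SE 0.56, adjusted p = 0.000699, edgeR). PTPRS fell from 11, 13 and 11 counts to 3, 2 and 2, which is 0.581, 0.694 and 0.618 CPM against 0.200, 0.107 and 0.115 CPM, with a log2 change of -2.14 (SE 0.69, adjusted p = 0.00929, edgeR). Both genes were low in every TNFα library, and their folds rest on few counts. The ratio of summed counts, corrected for library size, was 0.198 for LZTS1 (exact 95% interval 0.0899 to 0.392) and 0.218 for PTPRS (0.0816 to 0.497), intervals that cover counting error only.

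The other 3 genes did not pass with TNFα. FAT1 held 0.899, 2.51 and 0.899 CPM in Control and 1.27, 0.752 and 0.866 CPM with TNFα, a log2 difference of -0.60 (SE 0.39, adjusted p = 0.202, edgeR). The groups overlapped, and the second Control library stood above the rest. Without that library the value was 0.078. PITX1 gave 0.28 (SE 0.38, adjusted p = 0.563, edgeR) and SHROOM4 -0.37 (SE 0.21, adjusted p = 0.136, edgeR). SHROOM4 passed with total counts in place of TMM factors, at -0.65 (adjusted p = 0.00838, edgeR), a scaling that moves the median of all genes to -0.29. Without the first TNFα library, at 5.94 CPM against 3.38 and 3.12 CPM in the other two, it passed at -0.70 (adjusted p = 0.00765, edgeR).

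With IL-1β, DSP alone of the 6 passed the test, where 46.6% of all genes did. It held 4.64, 5.07 and 5.37 CPM, all above Control, and rose by 1.32 on the log2 scale (SE 0.19, adjusted p = 4.70e-07, edgeR). LZTS1 held 0.567, 0.264 and 0.585 CPM and PTPRS 0.567, 0.264 and 0.0532 CPM, all below every Control library. Their log2 differences were -1.05 (SE 0.47, adjusted p = 0.0670, edgeR) and -1.06 (SE 0.59, adjusted p = 0.141, edgeR). LZTS1 passed in the fit of all 30 libraries (adjusted p = 0.0179, edgeR), and PTPRS passed without the first IL-1β library, at -1.93 (adjusted p = 0.0351, edgeR). FAT1, PITX1 and SHROOM4 gave log2 differences of -0.20, -0.17 and -0.18, and without the second Control library FAT1 gave 0.47.

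With C5a, 0 of 6 genes passed edgeR's test, where 22.6% of all genes did; 0 passed at an unadjusted p under 0.05 and 0 by DESeq2. The log2 differences were 0.31 for DSP (SE 0.21), -0.43 for PITX1 (0.39), -0.72 for PTPRS (0.57), 0.14 for LZTS1 (0.42), -0.19 for FAT1 (0.37) and -0.03 for SHROOM4 (0.20). DSP held 2.64, 2.49 and 2.36 CPM, inside or just above the Control range. Without the second Control library FAT1 gave 0.49, so its direction with C5a rested on that library.

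With epinephrine, SHROOM4 alone passed, where 25.2% of all genes did. It held 4.28, 5.66 and 5.96 CPM in Control and 3.35, 2.66 and 3.62 CPM with epinephrine, without overlap, a log2 change of -0.70 (SE 0.21, adjusted p = 0.0123, edgeR). Without the second epinephrine library, which stood apart from its replicates, the change was -0.58 (adjusted p = 0.0439, edgeR). The call ended without the second Control library, at -0.65 (adjusted p = 0.0539, edgeR), and without the third, at -0.61 (adjusted p = 0.0619, edgeR). DSP held 2.78, 3.00 and 2.62 CPM, all above Control, with a log2 difference of 0.47 (SE 0.21, adjusted p = 0.0932, edgeR). FAT1, PITX1, PTPRS and LZTS1 gave 0.09, -0.11, 0.01 and -0.60 and did not pass.

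The 6 contrasts between stimuli in the direct arm were added after seeing the data. DSP was higher with TNFα than with IL-1β by 1.62 on the log2 scale (SE 0.15, adjusted p = 4.13e-11, edgeR), a contrast in which 41.4% of all genes passed. IL-1β in turn gave more DSP than C5a by 1.01 (adjusted p = 3.76e-05, edgeR) and more than epinephrine by 0.85 (adjusted p = 0.000304, edgeR), where 31.2% and 34.0% of all genes passed. LZTS1 was lower with TNFα than with C5a by a log2 difference of -2.44 (adjusted p = 0.000319, edgeR) and than with epinephrine by -1.70 (adjusted p = 0.0169, edgeR), where 51.5% and 45.9% of all genes passed. TNFα against IL-1β gave -1.25 for this gene (adjusted p = 0.103, edgeR). PTPRS was lower with TNFα than with epinephrine, at -2.15 (adjusted p = 0.0101, edgeR), and its difference between TNFα and IL-1β, at -1.08, did not pass (adjusted p = 0.279, edgeR). SHROOM4 was higher with C5a than with epinephrine by 0.67 (adjusted p = 0.0223, edgeR), where 17.1% of all genes passed.

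Over all 10 groups, each gene had its own order of levels. FAT1 was highest with EV-IL-1β (17.4 ± 2.40 CPM, SD, n = 3), EV-epinephrine (16.4 ± 0.770) and EV-TNFα (14.7 ± 1.31), neighbours that overlapped, and EV-C5a (2.53 ± 0.396) came next across a gap. DSP ran from the overlapping trio of EV-TNFα (35.5 ± 1.49 CPM), EV-IL-1β (33.6 ± 2.90) and EV-epinephrine (32.4 ± 3.28) to direct TNFα (15.6 ± 2.57), which was separate on both sides. EV-C5a (8.48 ± 0.802) and EV-Control (7.15 ± 0.589) followed, overlapping, then direct IL-1β (5.03 ± 0.370), and last epinephrine, C5a and Control at 2.80, 2.49 and 2.02 CPM. For PITX1, EV-C5a (1.87 ± 0.195 CPM) was separate from the 3 groups above it, and all groups from EV-C5a down to direct C5a (0.755 ± 0.0870) overlapped their neighbours. LZTS1 and PTPRS had EV-epinephrine alone at the top (7.76 ± 0.0616 and 5.04 ± 0.951 CPM) and direct TNFα at the bottom (0.193 ± 0.0522 and 0.141 ± 0.0514). The lowest LZTS1 group was separate from the next, and the lowest PTPRS group was not. SHROOM4 spanned 2.51 ± 0.457 CPM in EV-Control to 6.43 ± 0.690 in EV-TNFα with no neighbouring groups separate, and Control (5.30 ± 0.893) had rank 3.

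Per kb of exon, FAT1, LZTS1, PTPRS and SHROOM4 were minor members of families that these cells express mainly through other genes. In Control and EV-Control, DSP stood far under plakoglobin, plakophilin-2 and the plakins plectin and periplakin, but not under the desmosomal cadherins. With direct TNFα, DSP at 15.6 CPM stood above periplakin at 5.38 CPM, before scaling to exon length. FAT1 stood at 0.0887 CPM per kb in Control and 0.150 in EV-Control, against 12.8 and 11.8 for FAT4 and 5.53 and 4.32 for its ligand DCHS1. LZTS1 stood at 0.173 and 0.481 CPM per kb, against 22.2 and 18.8 for LZTS2 and 2.26 and 2.42 for LZTS3. PTPRS stood at 0.0737 and 0.188 CPM per kb, against 36.6 and 38.2 for PTPRF, and PTPRD had at most 1 count in a library. SHROOM4 stood at 0.513 and 0.243, against 8.45 and 7.29 for SHROOM1, 3.99 and 4.56 for SHROOM2 and 4.69 and 3.68 for SHROOM3. DSP stood at 0.200 and 0.709, against 102 and 81.5 for plakoglobin (JUP), 21.2 and 20.6 for plakophilin-2 (PKP2), 88.0 and 98.5 for plectin (PLEC) and 5.71 and 6.74 for periplakin (PPL). Among the desmosomal cadherins, DSG1, DSG4, DSC1 and DSC2 had 0 counts in every library. DSG3 and DSC3 reached group means of at most 0.130 and 0.0352 CPM. DSG2 was 0.111 CPM in Control, where DSP was 2.02 CPM. PITX1 at 0.293 and 0.476 was close to its low paralogue PITX3 at 0.481 and 0.429. As a share of its family's summed level per kb, LZTS1 was 0.704% in Control, 2.21% in EV-Control and 5.38% in EV-epinephrine, PTPRS 0.201%, 0.489% and 1.51%, and SHROOM4 2.91%, 1.54% and 3.42%.

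**Figure D3:**
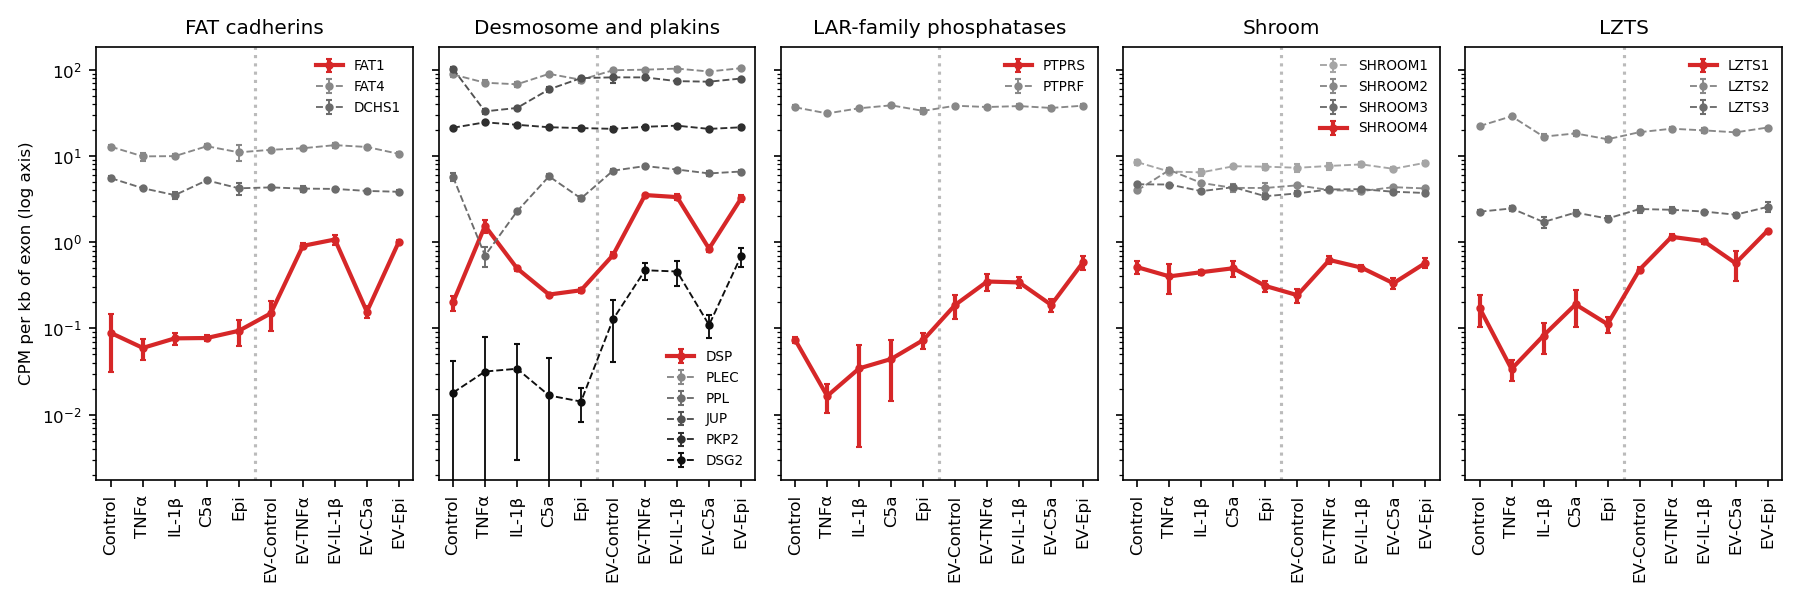
Mean level per kb of exon (CPM per kb, log axis, bars are SD of 3 libraries) of FAT1, DSP, PTPRS, SHROOM4 and LZTS1 in red beside their paralogues and partners in grey, in the 10 groups; lines only guide the eye. PTPRF and LZTS2 lie above the red lines in every group, and DSG2 and DSP are both higher in EV-TNFα, EV-IL-1β and EV-epinephrine than in EV-Control.

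Among 21 other desmosome and plakin genes, 14 were tested in the vesicle arm. With EV-TNFα, 3 rose and 2 fell, with EV-IL-1β 5 and 2, with EV-C5a 0 and 0 and with EV-epinephrine 3 and 4, where 13.3%, 14.6%, 0.0503% and 19.7% of all genes passed in either direction. DSG2, a desmosomal cadherin at 0.018 CPM per kb in Control, was 0.789 CPM in EV-Control and 2.93, 2.83 and 4.27 CPM with EV-TNFα, EV-IL-1β and EV-epinephrine. It held 6 to 23 counts in an EV-Control library and was too low to test in the direct arm. DSG2 entered the vesicle fit through the groups where it is high, so its differences are a description, although the counts above include it. With EV-TNFα, 1 gene rose instead of 3 without a low-count filter, with only the 2 groups compared and with all 30 libraries. PKP3, a plakophilin, rose by 0.65 with EV-epinephrine. PERP, a tetraspan desmosome protein, fell with the same 3 kinds of vesicle, by log2 changes of -0.34, -0.35 and -0.33. JUP, to which desmoplakin binds, gave -0.00, -0.15 and -0.04 and did not pass.

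With direct TNFα, 4 of the 13 tested desmosome and plakin genes rose and 7 fell, and with IL-1β 1 rose and 7 fell, where 52.7% and 46.6% of all genes passed in either direction. JUP went from 506 CPM in Control to 162 with TNFα and 178 with IL-1β, log2 changes of -1.64 (adjusted p = 5.20e-25) and -1.5 (adjusted p = 3.88e-23, edgeR). PPL, another plakin, went from 43.9 to 5.38 CPM with TNFα and 17.5 CPM with IL-1β, log2 changes of -3.02 and -1.32. PKP1 rose by 1.22 with TNFα and vimentin (VIM), the intermediate filament protein of endothelium, by 0.59. With IL-1β both fell, by log2 changes of -0.94 and -0.31. In the vesicle arm VIM fell with EV-TNFα, EV-IL-1β and EV-epinephrine, by -0.20, -0.11 and -0.16. With total counts in place of TMM factors, 2 genes of the list rose with TNFα instead of 4. With C5a, 2 rose and 3 fell and with epinephrine 1 rose and 4 fell, where 22.6% and 25.2% of all genes passed.

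Of 17 other Fat, Dachsous and planar polarity genes, 16 were tested in the vesicle arm. With EV-TNFα 3 rose and 1 fell, with EV-IL-1β 6 rose and 0 fell, with EV-C5a 0 changed and with EV-epinephrine 3 rose and 3 fell, where 13.3%, 14.6%, 0.0503% and 19.7% of all genes passed in either direction. In the fit of all 30 libraries, 3 rose with EV-IL-1β instead of 6. The planar polarity genes PRICKLE1 and VANGL2 and the cadherin CELSR1 were among those that rose: PRICKLE1 by 0.84 with EV-TNFα and 1.23 with EV-IL-1β, VANGL2 by 0.92 with EV-IL-1β and 1.42 with EV-epinephrine, and CELSR1 by 0.63 with EV-TNFα and 0.77 with EV-epinephrine. FJX1, which modulates Fat and Dachsous binding, fell with EV-TNFα (-0.19) and EV-epinephrine (-0.24). In the direct arm, TNFα raised 2 of 15 and lowered 7, or 1 and 11 with total counts in place of TMM factors. DCHS2 rose by 2.46 from a low level, with at most 49 counts in any library and a highest group mean of 2.32 CPM. CELSR2 fell from 45.4 to 13.6 CPM, a log2 change of -1.73 (adjusted p = 6.36e-15, edgeR). IL-1β raised 3 and lowered 6, C5a 1 and 1, and epinephrine 2 and 3, where 52.7%, 46.6%, 22.6% and 25.2% of all genes passed with TNFα, IL-1β, C5a and epinephrine.

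Of 22 tested genes of the Hippo pathway and its YAP targets, 4 rose and 1 fell with EV-TNFα, 7 and 2 with EV-IL-1β, 0 and 0 with EV-C5a and 4 and 4 with EV-epinephrine, where 13.3%, 14.6%, 0.0503% and 19.7% of all genes passed in either direction. With total counts or a GC correction, 7 rose with EV-TNFα. The YAP target ANKRD1 rose by 0.51 and 0.61 with EV-TNFα and EV-IL-1β, and the LIM protein AJUBA by 0.22 and 0.32. The upstream regulator WWC1 fell by -0.33 and -0.27 there. With EV-epinephrine, TEAD3 rose by 0.46, and the kinase LATS2 and the YAP target CCN2 changed by -0.52 and -0.25. Direct TNFα raised 13 and lowered 2, WWC1 by 1.07 and ANKRD1 by 0.76 among those that rose and AJUBA by -0.52. With total counts in place of TMM factors that split was 7 and 7. IL-1β raised 10 and lowered 6, C5a 11 and 5, and epinephrine 7 and 5, and the shares of all genes that passed were 52.7% with TNFα, 46.6%, 22.6% and 25.2%.

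Of the LAR-family phosphatases and their partners, 13 were tested in the vesicle arm, of which 1 rose and 2 fell with EV-TNFα, 3 and 2 with EV-IL-1β, 0 and 0 with EV-C5a and 3 and 2 with EV-epinephrine, where 13.3%, 14.6%, 0.0503% and 19.7% of all genes passed in either direction. The heparan sulfate proteoglycans SDC4 and GPC1, partners of PTPRS outside the cell, fell in the 3 groups where PTPRS was high, SDC4 by log2 changes of -0.44, -0.45 and -0.66 and GPC1 by -0.21, -0.30 and -0.28. SDC4 was high and widely spread in EV-Control (310 ± 52.9 CPM, SD), against 228 CPM in Control. With EV-TNFα, EV-IL-1β and EV-epinephrine it was 228, 226 and 196 CPM. AGRN, which encodes the heparan sulfate proteoglycan agrin, rose in the same 3 groups by 0.13, 0.18 and 0.15 (adjusted p = 0.0218, 0.0017 and 0.00478, edgeR), though its rise with EV-TNFα was not called with only the 2 groups compared or with a length correction. HSPG2, which encodes perlecan, rose by 0.21 with EV-IL-1β (adjusted p = 0.0403, edgeR), and the syndecan SDC2 rose by 0.73 with EV-IL-1β and 0.57 with EV-epinephrine. With direct TNFα, 5 of 14 rose and 3 fell, where 52.7% of all genes passed. AGRN rose by 0.72 and the exchange factor TRIO by 1.01, and SDC2 fell by 1.36 on the log2 scale. With total counts, 8 fell instead of 3, and with a GC correction 1.

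Of 19 other Shroom and actomyosin genes, 4 rose and 0 fell with EV-TNFα, 5 and 1 with EV-IL-1β, 0 and 1 with EV-C5a and 2 and 3 with EV-epinephrine, where 13.3%, 14.6%, 0.0503% and 19.7% of all genes passed in either direction. The EV-C5a fall, of MYH9, was not called with total counts, a mean of at least 50 counts, DESeq2, only the 2 groups compared, all 30 libraries, or a GC or length correction. With EV-epinephrine, 5 rose with total counts and 4 with a length correction. MYH14, a nonmuscle myosin heavy chain, was 0.248 CPM in EV-Control and 1.19, 0.561 and 1.37 CPM with EV-TNFα, EV-IL-1β and EV-epinephrine, with at most 38 counts in a library. It was too low to test in the direct arm and entered the vesicle fit through the groups where it is high, so these values are a description, although the counts above include it. The myosin light chain gene MYL12A rose by 0.28 with EV-TNFα and with EV-IL-1β. With direct epinephrine, under which SHROOM4 fell, 0 of 18 rose and 8 fell, SHROOM3 by a log2 change of -0.45 and the myosin heavy chain MYH9 by -0.38. Direct TNFα raised 11 and lowered 4, SHROOM2 by 0.78 and ACTN1 by 0.84 among the first and MYH10 by -0.73 among the second, and with total counts that split was 4 and 8. IL-1β raised 3 and lowered 7, or 4 with a GC correction, and C5a raised 2 and lowered 0. The shares of all genes that passed were 52.7% with TNFα, 46.6% with IL-1β, 22.6% with C5a and 25.2% with epinephrine.

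Only 5 of 12 other homeobox genes of the PITX list could be tested. SHOX2 rose by 0.73 with EV-TNFα and 0.72 with EV-epinephrine, and PRRX2 by 0.90 and 0.87. OTX1 rose by 0.67 with EV-epinephrine, and 0 of 5 passed with EV-IL-1β or EV-C5a, where 13.3%, 14.6%, 0.0503% and 19.7% of all genes passed with EV-TNFα, EV-IL-1β, EV-C5a and EV-epinephrine. Direct TNFα raised MSX1 by 2.32, SHOX2 by 1.16 and PITX3 by 1.18, and OTX1 changed by -0.97, in a comparison where 52.7% of all genes passed. Of the LZTS family and its microtubule partners, 10 genes were tested. In the vesicle arm 1 rose and 1 fell with EV-TNFα, 0 and 1 with EV-IL-1β, 0 and 0 with EV-C5a and 1 and 2 with EV-epinephrine. Of all genes, 13.3%, 14.6%, 0.0503% and 19.7% passed in these comparisons. LZTS2 rose by 0.18 with EV-epinephrine, and MAP4 fell by 0.14 on the log2 scale with EV-TNFα. The rise of LZTS2 with EV-TNFα, by 0.13, was not called without a low-count filter, by DESeq2, with only the 2 groups compared or with all 30 libraries. The falls with EV-epinephrine, of MAP4 and MAP1B, were not called with total counts, without a low-count filter or with all 30 libraries. With direct TNFα, 3 rose and 4 fell, MAP1B by 1.05 among the first and CDK1 by -0.70 among the second, where 52.7% of all genes passed. IL-1β raised 3 and lowered 6, C5a 2 and 2, and epinephrine 1 and 3, where 46.6%, 22.6% and 25.2% of all genes passed. With these 3 stimuli in that order, N4BP3 changed by -1.01, -0.77 and -0.87 and LZTS2 by -0.40, -0.27 and -0.50. MAP1B rose by 0.43, 0.39 and 0.39.

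The genes most like each member were sought by Pearson r of log2 CPM over the 30 libraries, among 10545 genes with a mean of at least 5 CPM. The libraries share the cell line and fall into groups, so r is a description. FAT1 was most like INPP4B (0.92), PTGFRN (0.92) and PCDH9 (0.92), and PITX1 like UCHL1 (0.95), PTGFRN (0.94) and FBLN1 (0.92). LZTS1 was most like PHGDH (0.97), DAAM2 (0.95) and DUSP4 (0.95), and PTPRS like FABP4 (0.94), PHGDH (0.94) and TPD52 (0.93). PHGDH, the enzyme that commits glycolytic carbon to serine synthesis, was 3.47 CPM in Control, 1.36 CPM with TNFα, 5.99 CPM in EV-Control and 13.9 CPM with EV-epinephrine. DSP was most like NIBAN1 (0.96), LINC00370 (0.96) and ZFHX4 (0.96), and NIBAN1 was 13.7 CPM in Control, 45.5 CPM with TNFα, 25.2 CPM in EV-Control and 49.7 CPM with EV-TNFα. SHROOM4 had no gene as close, with ZNF45 (0.78), SUPT20H (0.74) and ZMYM5 (0.72).

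Of the members, 5 have long transcripts. Length was not itself a criterion of the choice, but the rankings of rises needed a mean of at least 5 CPM. That level is not scaled to transcript length, so length may bear on which genes are ranked, and this was not tested. The longest annotated protein-coding transcripts were 14786 nucleotides for FAT1, 9796 for DSP, 9556 for SHROOM4, 6353 for PTPRS, 5706 for LZTS1 and 2406 for PITX1, the 99.2, 96.0, 95.7, 86.2, 82.0 and 37.2 percentiles of genes tested in the vesicle arm. Over all genes, the median log2 difference per decile of length stayed between -0.024 and 0.025 in the vesicle comparisons. GC content was high for PITX1 (68.9%), PTPRS (62.9%) and LZTS1 (60.3%) and middling for SHROOM4 (49.5%), DSP (47.9%) and FAT1 (46.3%). In the direct arm the median fell with GC content, from 0.056 in the lowest decile to -0.208 in the highest with TNFα and from 0.100 to -0.239 with IL-1β. With a correction for GC, the TNFα changes of PTPRS and LZTS1 were -1.98 (adjusted p = 0.0161) and -2.17 (adjusted p = 0.00129, edgeR), so both calls stood.

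**Figure D4:**
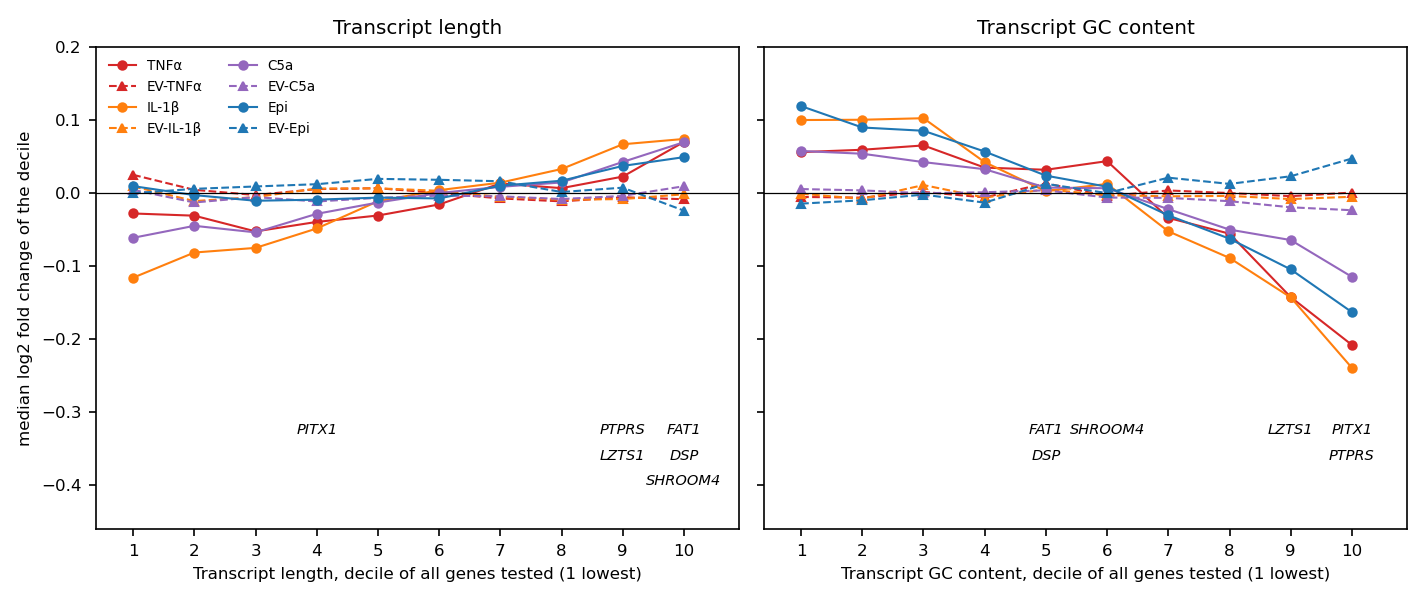
Median log2 difference of all tested genes in each decile of transcript length (left) and transcript GC content (right), with solid lines for stimulus against Control and dashed lines for vesicles against EV-Control; gene names mark the decile of each member. The solid TNFα line ends at -0.208 in the highest GC decile, which holds PITX1 and PTPRS, and the dashed lines stay near 0.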

How the data were processed

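RNA was measured by RNA-seq in 30 libraries of hCMEC/D3 cells, made with a NEBNext Ultra RNA kit per the labels' protocols. The authors deposited raw counts per gene with a gene ID and symbol. FastQC, STAR, R 4.4.1, DESeq2 and the build hg38 are named in the submitters' processing notes, without the role of each; the counting tool, annotation and strand setting are not given in the sources used here. Of 63147 lines, 4 without a gene ID, 2 genes without counts on their line and 3 repeated IDs were left out, which leaves 63138 genes and 16643961 to 22112326 counts per library. Precision is limited by counts: most members held under 100 counts in a direct library.

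The rest was computed here from the deposited counts. Groups were taken from the sample titles. edgeR 4.0.16 in R 4.3.3 (filterByExpr, TMM factors, robust quasi-likelihood fit and test, two-sided, Benjamini-Hochberg adjustment over all genes, threshold 0.05) was fitted to the 15 direct libraries (15908 genes) and the 15 vesicle libraries (15918 genes), and to all 30 for comparisons across the arms (16691 genes). Log2 differences and SEs come from these fits, and the CPM values are on TMM-scaled library sizes. Contrasts between direct stimuli and of each vesicle group with Control were added after seeing the data. Lengths and GC are of the longest protein-coding GENCODE 29 transcript (GRCh38), or of the longest transcript where a gene has no protein-coding one. Promoters are from RefSeq. The scripts were tested on simulated data.

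The members and gene lists were chosen with earlier results of these data known. Named besides the members are their paralogues and closest partners, for each list and comparison up to 2 of the largest rises and falls that passed the test with a mean of at least 1 CPM, the 3 genes most like each member, and the 2 genes ranked next below the last member; some genes that this rule names, and an epithelial marker, are not reported here, and so no sum over the epithelial list is given. OTX1 and AGRN with EV-epinephrine, AGRN with EV-IL-1β and SHOX2 with TNFα fall outside that rule and were named after their values were seen. The same holds for PKP1 and VIM with IL-1β, VIM with EV-epinephrine and the levels of DSG1, DSG3, DSG4, DSC1, DSC2 and DSC3. Replicate numbers did not pair the samples: deviations of same-numbered libraries had correlations of -0.0393 to 0.0259. Alternatives tried were relative log expression factors, total counts, no filter or a mean of at least 50 counts, DESeq2 1.42.0, a replicate block, only the 2 groups compared or all 30 libraries, GC and length corrections, a log2 fold change over 1, and leaving out each replicate.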

Additional observations from a re-analysis of the deposited data

Results flagged for a closer look

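For 3 genes, every library moved one way with a stimulus added directly and the opposite way with vesicles of cells given that stimulus. In each case the difference between the direct and the vesicle response was not tested. PTPRS was lower in all TNFα libraries (log2 difference -2.14 from Control) and higher in all EV-TNFα libraries (0.89 from EV-Control), and it gave -1.06 with IL-1β and 0.85 with EV-IL-1β. LZTS1 gave -2.30 with TNFα and 1.26 with EV-TNFα, and -1.05 with IL-1β and 1.09 with EV-IL-1β. SHROOM4 gave -0.70 with epinephrine and 1.25 with EV-epinephrine. Its level in EV-Control was itself below Control, at -1.08, and its EV-epinephrine libraries overlapped Control, at 0.17. The vesicle values are those the genes were chosen for, and the IL-1β values of PTPRS and LZTS1 did not pass the test. PTPRS and LZTS1 are low in the direct libraries, with 2 to 4 counts in each TNFα library.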

How the results depend on the processing

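The DSP rise with TNFα stayed between 2.67 and 3.11 and with IL-1β between 1.19 and 1.49 on the log2 scale, and the falls of LZTS1 (-2.57 to -1.93) and PTPRS (-2.43 to -1.98) with TNFα passed wherever these genes were tested. With a mean of at least 50 counts required, 1 of the members was called with TNFα, since fewer were tested. With IL-1β, 2 were called with total counts, with only the 2 groups compared and with all 30 libraries, LZTS1 being added. With a log2 fold change over 1 required, 0 were called with epinephrine, since the 1 call there, SHROOM4, had a change of -0.70. Why LZTS1 was added with IL-1β was not tested. Leaving out each replicate gave 3 to 4 calls with TNFα, 1 to 2 with IL-1β, 0 to 0 with C5a and 0 to 1 with epinephrine, and medians of 1.28 to 1.44 with EV-TNFα, 1.15 to 1.36 with EV-IL-1β, 0.134 to 0.279 with EV-C5a, 1.54 to 1.94 with EV-epinephrine and 0.952 to 1.34 for EV-Control against Control. With the replicate number as a block, the calls were 3, 1, 0 and 1 and the medians 1.33, 1.20, 0.196, 1.68 and 1.05, so the block changed no call of a member; the numbers are not known to pair the libraries.

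Some small values, none of which passed the test, changed sign. With a GC correction PITX1 gave 0.083 with IL-1β and 0.072 with epinephrine. PTPRS with epinephrine gave -0.000624 with relative log expression factors, -0.00571 with total counts, -0.0023 with DESeq2, -0.00146 with all 30 libraries and -0.0285 with a length correction. Leaving out a replicate gave FAT1 -0.84 to 0.078 with TNFα, -0.45 to 0.47 with IL-1β, -0.43 to 0.49 with C5a and -0.21 to 0.76 with epinephrine. It gave SHROOM4 -0.21 to 0.082 and LZTS1 -0.29 to 0.51 with C5a, and PITX1 -0.23 to 0.059 and PTPRS -0.12 to 0.17 with epinephrine. The FAT1 values of 0.078, 0.47 and 0.49 came without the second Control library, which held 47 FAT1 counts against 17 and 16 in the others. The cause of the other sign changes was not tested. With total counts in place of TMM factors, the share of calls over all genes that were higher went from 52.1% to 22.7% with TNFα, from 51.5% to 38.6% with IL-1β, from 46.4% to 60.2% with EV-epinephrine and from 55.3% to 42.6% for EV-Control against Control. Of the counts of called genes per list under an alternative, 1136 stayed within 1.5 times the reported count, 40 were higher and 70 lower. Counts limit the direct arm most: PTPRS held 1 to 16 counts in a library there.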
